A study of Mus musculus with 8 samples.

Results

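The genes described here are 10 maternal factors that write, copy, remove or protect DNA methylation, namely Dnmt1, Uhrf1, Dnmt3a, Dnmt3b, Dnmt3l, Tet3, Tdg, Dppa3, Zfp57 and Trim28. They were taken by symbol from a table of 25574 genes, and each symbol matched exactly 1 row. Of these genes 9 had a value above 0 and passed the filter on low values, and Tdg was listed at 0 in every library. The libraries came from oocytes of CD1 mice of 8 weeks that had resumed meiosis and reached nuclear envelope breakdown (NEBD). The mice had received 5 IU of pregnant mare serum gonadotropin 46 h earlier, the oocytes had been isolated in 100 µM IBMX, which holds them before NEBD, denuded and matured for 180 min without it, and both datasets carry the exposure to 0.1 mg/mL cycloheximide, an inhibitor of translation elongation, for 10 min. Lysates of 200 oocytes were sedimented through 10 to 50% sucrose into 10 fractions by SSP-profiling, a polysome profiling method for scarce samples. Fractions 2 to 5 gave the non-polysomal (NP) dataset and fractions 6 to 10 the polysomal (P) dataset, with 4 libraries each. The comparison of P with NP asks which maternal transcripts sediment with polysomes at NEBD. NP also covers ribosomal subunits and single ribosomes. Fraction 1 was left out, and the authors could not exclude that it held some stored particles. They also could not exclude that heavy stored particles sedimented with the polysomes.

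In the mouse germline, DNA methylation is laid down during oocyte growth by DNMT3A together with its catalytically inactive partner DNMT3L. DNMT1 copies methylation to the daughter strand after UHRF1 has recognised hemimethylated DNA, and the oocyte stores a form of DNMT1 that starts from an oocyte-specific first exon. After fertilisation TET3 oxidises methylcytosine in the zygote, whereas DPPA3 (also called STELLA) shields the maternal genome from this oxidation and keeps UHRF1 away from oocyte chromatin. ZFP57 binds imprinted regions in their methylated state and recruits TRIM28 and histone methyltransferases. Fully grown oocytes are transcriptionally silent, so that these proteins are made from stored mRNAs. Many stored mRNAs carry a cytoplasmic polyadenylation element (CPE), which is bound by CPEB1, near the poly(A) signal.

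The 3′ ends are shown because they are the part of a stored mRNA at which cytoplasmic polyadenylation acts. A CPE was searched as TTTTAT or TTTTAAT in the last 100 bases of the annotated 3′UTR, and a poly(A) signal as AATAAA or ATTAAA in the last 40 bases, both on the strand of the transcript. Of 10 members 3, Dnmt1, Dnmt3a and Tet3, held a CPE in this window, whereas 17.9% of 19659 coding genes did. The following windows of 30 bases around the motifs are given 5′ to 3′, with CPE and poly(A) signal letters in capitals, and were read from GRCm38 and GENCODE M21.
Dnmt1, CPE (chr9:20907239-20907268, minus strand): gacttgatgtagTTTTATatgttgtaatat
Dnmt1, poly(A) signal (chr9:20907213-20907242, minus strand): atatttcttcaaAATAAAgcgcttctgtca
Dnmt3a, CPE (chr12:3914377-3914406, plus strand): tgtttatatataTTTTATtttcgctataaa
Tet3, overlapping motifs (chr6:83362381-83362410, minus strand): tgTTTTAATAAATTTTATatttattttttg
Dppa3, poly(A) signal without a CPE (chr6:122630242-122630271, plus strand): ccagaaatttgtAATAAAagcatttttgtt
Uhrf1, poly(A) signals without a CPE (chr17:56323455-56323484, plus strand): atattgcAATAAAATAAAattctggccggg

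In Dnmt1 20 bases separated the CPE from the poly(A) signal, and in Dnmt3a 21 bases did. In Tet3 a TTTTAAT shared its last 3 bases with the AATAAA, and a TTTTAT followed it directly. Trim28, Dnmt3b and Tdg held a poly(A) signal but no CPE in these windows, and Dnmt3l and Zfp57 held neither. The absence of a CPE refers to the last 100 bases only. Over the whole annotated 3′UTR, Uhrf1 and Dnmt3b each held 2 CPE motifs and Tdg held 4, whereas Dppa3, Trim28, Dnmt3l and Zfp57 held none. Of all coding genes with a 3′UTR of at least 100 bases, 73.7% held a poly(A) signal and 13.6% held both motifs. The search covered 1 annotated transcript end of each gene, and the ends that the oocytes used were not measured.

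The 8 libraries had recovered depths, that is the numbers to which the FPKM values had been scaled, between 1299377 in NP replicate 2 and 7594637 in NP replicate 4. The P libraries lay between 2677946 and 4699328. Among 8 oocyte markers the summed FPKM was 5070 to 10528 in NP and 7251 to 28579 in P, and it was highest in P replicates 4 and 1. Of 12 cumulus and granulosa markers, 8 stayed below 1 FPKM in every library and 3 of them, Foxl2, Inhba and Has2, were at 0 throughout. The markers above 1 FPKM in at least 1 library were Cyp19a1, Nr5a2, Kitl and Lhcgr, and the summed level of all 12 was 15.3 to 94.4 FPKM in NP and 3.55 to 64.0 FPKM in P. The summed level of 5 theca and stroma markers was at most 5.10 FPKM in NP and 0.993 FPKM in P. Of 4 blood and immune markers found by symbol, 3 were at 0, and Cd68 reached 35.9 FPKM in NP replicate 1 and was listed at 0 in P. The part of these markers in the values below was not tested. In pools of 200 oocytes, fewer oocytes with a transcript and less of it in each oocyte cannot be told apart, and FPKM is a share of each library and not an amount of RNA in the gradient.

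No member was called in the comparison of P with NP, and none had libraries of one dataset all above those of the other. By limma on log2(FPKM + 1), 0 of 9 tested members passed an adjusted p of 0.1, beside 3 of 14292 genes (0.021%), all 3 higher in NP. At an unadjusted p below 0.05 the count was 0 of 9 members, beside 9.95% of all genes tested, which split into 68 genes with more in P and 1354 with more in NP. In all genes tested, the P libraries lay entirely above the NP libraries in 0.357% and entirely below them in 5.92%. The fitted differences ran from 1.12 for Tet3 to −0.77 for Zfp57. Their median was 0.56, whereas that of all genes tested was −0.39, and 7 of 9 members lay above the latter. Each P library had fewer genes above 0, 9139 to 11339, than each NP library, 11703 to 13753. The part of this in the median of all genes was not tested. The 8 oocyte markers had a median of 0.72. These values depend on how the libraries are scaled to each other, and the 95% confidence intervals of all 9 members included 0.

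**Figure D1:**
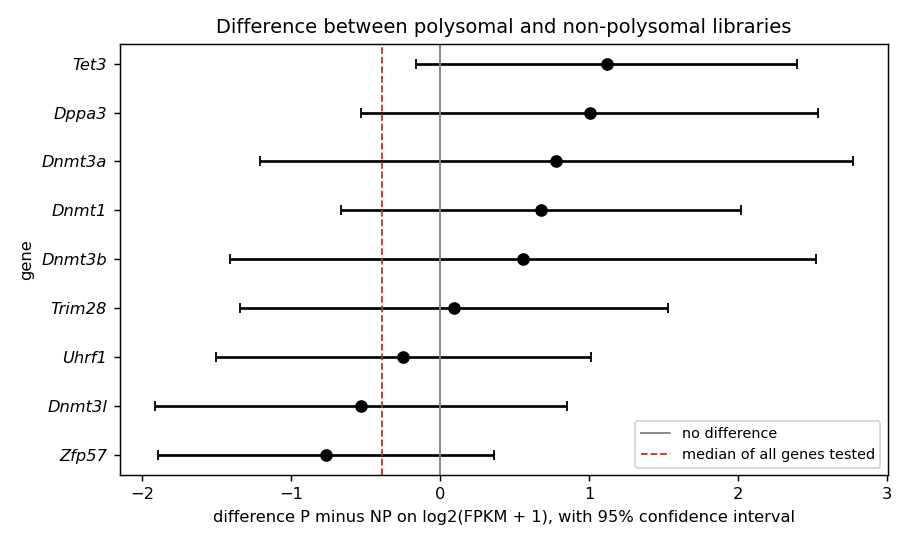
Difference P minus NP on log2(FPKM + 1) for the 9 members above 0 (points, limma estimate from 4 P and 4 NP libraries; bars, 95% confidence interval), with 0 as a solid line and the median of all 14292 genes tested, −0.39, as a dashed line. All 9 intervals cross 0, from Tet3 at 1.12 to Zfp57 at −0.77.

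The levels of the members differed more between genes than between datasets. FPKM is corrected for gene length, so genes can be set beside each other on this scale. In NP the order of the means was Zfp57 with 499.9 FPKM, Dppa3 with 372, Dnmt1 with 358, Uhrf1 with 195, Dnmt3l with 93.9, Tet3 with 78.8, Trim28 with 78.0, Dnmt3a with 6.13 and Dnmt3b with 3.13 FPKM. In P it was Dppa3 with 891 FPKM, Dnmt1 with 722, Zfp57 with 300.4, Tet3 with 192, Uhrf1 with 188, Trim28 with 98.2, Dnmt3l with 73.1, Dnmt3a with 13.8 and Dnmt3b with 5.03 FPKM. Neighbours in either order overlapped in their range over the libraries, with the exception of Trim28 and Dnmt3a in NP, where the lowest Trim28 value, 40.8 FPKM, exceeded the highest Dnmt3a value, 12.4 FPKM. The most abundant members ranked among the top transcripts of each library: Dnmt1 stood above at least 96.8% of the genes tested, Dppa3 above at least 95.7% and Zfp57 above at least 95.8%. The length that the FPKM of Dnmt3a had been divided by was 16642 bp, the merged exons of all annotated forms, against 9685 bases for the transcript whose end was searched above, and which form the oocytes held was not measured.

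**Figure D2:**
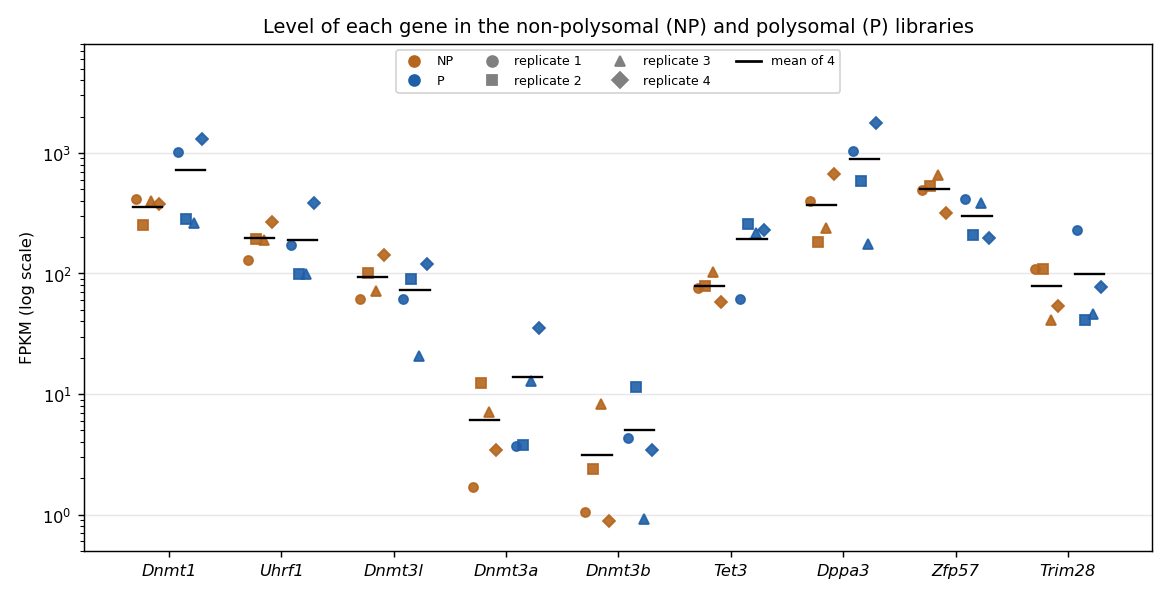
FPKM (log scale) of the 9 members above 0 in each of the 4 NP and 4 P libraries, with the replicate number as the symbol and the mean of 4 libraries as a bar. Points of NP and P overlap in every gene; Dnmt3a and Dnmt3b lie below 40 FPKM and the other 7 genes above 20 FPKM in every library.

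Dnmt1 (chromosome 9, 20907206 to 20959888, minus strand), the maintenance methyltransferase, was at 411, 252, 397 and 374 FPKM in NP replicates 1 to 4. In P replicates 1 to 4 it was at 1026, 284, 263 and 1315 FPKM. P replicates 1 and 4 stood above every NP library, whereas P replicates 2 and 3 lay within the NP range. The mean was 358 ± 72.7 in NP and 722 ± 531 in P (SD, n = 4 each), and the log2 difference was 0.68 (SE 0.63, adjusted p = 0.681). P replicates 1 and 4 were also the libraries in which the oocyte factor Gdf9 was highest, at 8080 and 11338 FPKM against 2536 and 1562 FPKM in P replicates 2 and 3. Among the P libraries, Zp1, Zp2, Zp3, Nlrp5 and Figla were also highest in replicates 1 and 4. Bmp15 was higher in P replicate 3 (2579 FPKM) than in P replicate 1 (1967 FPKM). Oosp1 was higher in P replicate 2 (1905 FPKM) than in P replicate 1 (1828 FPKM). The part of these levels in the Dnmt1 values was not tested. The ratio of the mean FPKM in P to that in NP was 2.02, and 1.46 without P replicate 4.

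Uhrf1 (chromosome 17, 56303321 to 56323486, plus strand), which guides DNMT1 to hemimethylated sites, had 129, 193, 191 and 269 FPKM in NP. The P libraries held 173, 98.3, 98.9 and 381 FPKM. P replicate 4 exceeded all NP libraries and P replicates 2 and 3 were below all of them, so the P values surrounded those of NP. The means were 195 ± 57.0 in NP and 188 ± 133 in P (SD, n = 4 each), with a log2 difference of −0.25 (SE 0.59, adjusted p = 0.864). Without P replicate 4, the ratio of means of 0.960 became 0.631. Uhrf2, the related gene with no established part in copying methylation, contributed little, since Uhrf1 held at least 99.2% of the sum of both in every library. Uhrf1 shares 98.3% of bases over 44.3% of its transcript with the pseudogene Gm5648, which is not a row of the table, and the treatment of reads with several matches is not stated in the labels or methods.

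Among the de novo factors, Dnmt3l (chromosome 10, 78041947 to 78063622, plus strand), the cofactor without catalytic activity, was at 60.9, 101, 71.9 and 142 FPKM in NP. In P it was at 61.7, 89.6, 20.9 and 120 FPKM. P replicate 3 was below the NP range and the other P libraries lay within it. The log2 difference was −0.53 (SE 0.65, adjusted p = 0.738), from means of 93.9 ± 36.1 and 73.1 ± 42.2 FPKM (SD, n = 4 each).

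Dnmt3a (chromosome 12, 3806007 to 3914443, plus strand), the catalytic partner of DNMT3L in oocytes, had 1.69, 12.4, 7.04 and 3.41 FPKM in NP and 3.70, 3.80, 12.7 and 35.0 FPKM in P. The highest P library exceeded the lowest 9.46-fold, and the highest NP library the lowest 7.32-fold. The log2 difference was 0.78 (SE 0.93, adjusted p = 0.734). Its ratio of means, 2.25, was 1.10 without P replicate 4 and 3.41 without NP replicate 2.

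Dnmt3b (chromosome 2, 153649450 to 153687730, plus strand), a de novo enzyme better known from the early embryo, had 1.04, 2.41, 8.21 and 0.877 FPKM in NP and 4.29, 11.5, 0.925 and 3.44 FPKM in P. It was the least covered of the members above 0, and its FPKM values stand for 16 to 305 recovered steps, each a read or a fragment. The range within each dataset, 9.36-fold in NP and 12.4-fold in P, was wider than the ratio of means of 1.61, which was 0.920 without P replicate 2 and 3.49 without NP replicate 3. The log2 difference was 0.56 (SE 0.92, adjusted p = 0.797). Dnmt3c, a related gene with 92.7% of bases shared over 41.7% of the Dnmt3b transcript, is not a row of the table.

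The make-up of the family was alike in all libraries in that Dnmt1 was the main transcript. Dnmt1 held 68.5 to 86.6% of the summed FPKM of the 4 genes in NP and 73.0 to 93.6% in P. By FPKM, Dnmt3l was the main transcript among the de novo factors. It held 82.5 to 97.1% of the sum of Dnmt3a, Dnmt3b and Dnmt3l in NP and 60.5 to 88.5% in P. This share depends on the length of 16642 bp that Dnmt3a was divided by. The ranges of NP and P overlapped for both shares, and neither was tested.

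**Figure D3:**
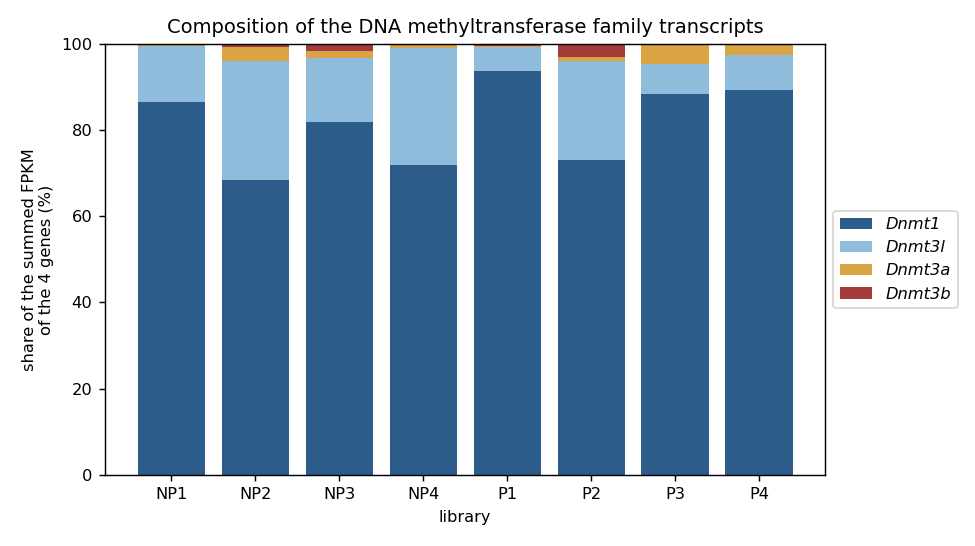
Share (%) of Dnmt1, Dnmt3l, Dnmt3a and Dnmt3b in the summed FPKM of these 4 genes, 1 bar per library. Dnmt1 makes up 68.5 to 93.6% of each bar and Dnmt3l most of the rest.

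Tet3 (chromosome 6, 83362373 to 83441678, minus strand), the dioxygenase of the zygote, had the largest positive difference of the members in the fit as reported. Dnmt3a (1.37) and Dnmt3b (1.33) were level with it or above after quantile normalisation (Tet3 1.33). Without P replicate 3, Dppa3 (1.64), Dnmt1 (1.04) and Dnmt3b (1.004) were above Tet3 (0.994). Without P replicate 2, Dnmt3a (1.15), Dppa3 (1.06) and Dnmt1 (1.01) were above Tet3 (0.91). Dppa3 was also above Tet3 without NP replicate 4 (1.34 against 0.98), and Dnmt3a without NP replicate 2 (1.17 against 1.13). Tet3 was at 75.2, 78.7, 103 and 58.2 FPKM in NP. In P it was at 61.7, 259, 218 and 231 FPKM. P replicates 2, 3 and 4 were each more than 2-fold above the highest NP library, while P replicate 1 was within the NP range and was the only overlap between the datasets. The means were 78.8 ± 18.5 in NP and 192 ± 88.8 in P (SD, n = 4 each). The log2 difference of 1.12 (SE 0.60) had a 95% confidence interval from −0.16 to 2.40 and did not pass (unadjusted p = 0.0821, adjusted p = 0.533). It ranked above 96.8% of the differences of all genes tested. Without P replicate 1 the P libraries lay entirely above the NP libraries, as they then did in 0.742% of all genes tested. Tet3 was the main TET transcript, with at least 98.9% of the sum of Tet1, Tet2 and Tet3 in each library.

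Tdg (chromosome 10, 82629828 to 82650799, plus strand), the glycosylase that excises oxidised methylcytosine, was listed at 0 in all 8 libraries. Over all 25574 genes, 9989 (39.1%) were listed at 0 in every library, so a listed 0 was common. Of 80 genes for cytosolic ribosomal proteins, which every cell uses, only Rpl3l, a form known from muscle, was at 0 throughout. Tdg has copies that are nearly identical, Tdg-ps with 98.7% of bases shared over 84.8% of the Tdg transcript and Gm9855 and Gm5597 with 99.3% over about 34.1%. None of these copies is a row of the table, and Tdg also shares 367 exon bases with Glt8d2 on the opposite strand. Whether Tdg mRNA was present cannot be read from this table. No fold change was computed for it.

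Dppa3 (chromosome 6, 122626410 to 122630272, plus strand), which protects the maternal genome from TET3, was at 399, 184, 239 and 666 FPKM in NP. It was at 1046, 585, 177 and 1757 FPKM in P. P replicates 1 and 4 exceeded all NP libraries and P replicate 3 was below all of them, a spread of 9.94-fold within P. The means of 372 ± 216 and 891 ± 677 FPKM (SD, n = 4 each) gave a log2 difference of 1.005 (SE 0.71, adjusted p = 0.637). Their ratio was 2.40, and 1.62 without P replicate 4. P replicates 1 and 4 were again those with high Gdf9, a pattern that Bmp15 and Oosp1 did not share. The pseudogene Dppa3-ps shares 98.2% of bases over 54.1% of the Dppa3 transcript and is not a row of the table, so reads of both may not be told apart.

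Zfp57 (chromosome 17, 37001163 to 37010635, plus strand), the zinc finger protein that recognises methylated imprints, had the largest negative difference in the fit as reported. Dnmt3l was lower without P replicate 4 (−0.85 against −0.60), without P replicate 2 (−0.71 against −0.62) or without NP replicate 3 (−0.633 against −0.625). Without P replicate 4, Uhrf1 (−0.67) was also lower than Zfp57. Zfp57 was at 494, 536, 652 and 318 FPKM in NP. It was at 416, 206, 381 and 198 FPKM in P. P replicates 2 and 4 lay below every NP library, and no P library exceeded the NP mean. From 499.9 ± 138 and 300.4 ± 114 FPKM (SD, n = 4 each), the log2 difference was −0.77 (SE 0.53, adjusted p = 0.629). Zfp57 had the narrowest range of the members within P, 2.10-fold, and the difference lay at the 33.6 percentile of all genes tested, so that many genes had a more negative one. Without NP replicate 4, the NP libraries lay entirely above the P libraries, as they then did in 10.4% of all genes tested.

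Trim28 (chromosome 7, 13024152 to 13031035, plus strand), the corepressor that ZFP57 recruits, was at 110, 108, 40.8 and 53.8 FPKM in NP and at 228, 41.0, 46.4 and 77.7 FPKM in P. P replicate 1 was the only P library outside the NP range. The log2 difference was 0.09 (SE 0.67, adjusted p = 0.957). The ratio of means was 1.26, and 0.705 without P replicate 1.

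Ratios of partner genes within a library cancel the scaling between libraries, apart from the 1 added to each value and from quantile normalisation, which moved the ratio of Dnmt3a to Dnmt3l from 1.31 to 1.69. This does not hold for Tet3 to Tdg, since Tdg was listed at 0. The ratios were taken as the log2 ratio of (FPKM + 1) for 5 pairs, compared by 2-sided exact permutation over 70 assignments, and adjusted over the 5 pairs; the smallest p that 4 against 4 libraries allow is 0.0286. None of the pairs passed 0.05.

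Dnmt1 was above Uhrf1 in 8 of 8 libraries. The log2 ratio of Dnmt1 to Uhrf1 was 1.66, 0.38, 1.05 and 0.47 in NP and 2.56, 1.52, 1.40 and 1.79 in P. NP replicate 1 reached into the P range, and the other 3 NP libraries lay below all P libraries. The difference in the log2 ratio was 0.93 (exact permutation p = 0.0857, adjusted p = 0.190). Leaving out NP replicate 1 gave 1.18 (exact permutation p = 0.0286, the smallest that 3 against 4 libraries allow). This p follows from removing the only NP library in the P range, and it was not adjusted over the pairs. Leaving out any other library gave an exact permutation p between 0.0857 and 0.171.

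Dppa3 exceeded its target Uhrf1 in 7 of 8 libraries, with NP replicate 2 at a log2 ratio of −0.07. The log2 ratios of Dppa3 to Uhrf1 were 1.62, −0.07, 0.32 and 1.31 in NP and 2.59, 2.56, 0.83 and 2.20 in P. P replicates 1, 2 and 4 were above all NP libraries, and P replicate 3 was within their range. The difference in the log2 ratio was 1.25 (exact permutation p = 0.0857, adjusted p = 0.190).

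In FPKM, Dnmt3a was below Dnmt3l in 8 of 8 libraries. This order depends on the lengths used, 16642 bp for Dnmt3a and 2988 bp for Dnmt3l. In recovered steps, which are not corrected for length, Dnmt3a exceeded Dnmt3l in P replicates 3 (940 against 277) and 4 (1558 against 961). In the other libraries it held fewer steps than Dnmt3l. The log2 ratio of Dnmt3a to Dnmt3l differed by 1.31 between P and NP (exact permutation p = 0.257, adjusted p = 0.257). It was −4.52, −2.93, −3.18 and −5.02 in NP and −3.74, −4.24, −0.67 and −1.75 in P, so that P replicates 3 and 4 were the libraries with the most Dnmt3a per Dnmt3l. Leaving out P replicate 3 gave a difference of 0.67. Zfp57 was above Trim28 in 8 of 8 libraries, with log2 ratios of 2.16, 2.30, 3.97 and 2.54 in NP and 0.87, 2.31, 3.01 and 1.34 in P. The difference was −0.86 (exact permutation p = 0.257, adjusted p = 0.257), and it was −0.45 without NP replicate 3 and −0.52 without P replicate 1. The ratio of Tet3 to Tdg is set by Tet3 alone, because Tdg was listed at 0. Its difference was 1.12 (exact permutation p = 0.114, adjusted p = 0.190). Leaving out P replicate 1, the only P library in the NP range, gave 1.60 (exact permutation p = 0.0286). This p again follows from that choice and was not adjusted. Leaving out any other library gave an exact permutation p between 0.114 and 0.2.

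**Figure D4:**
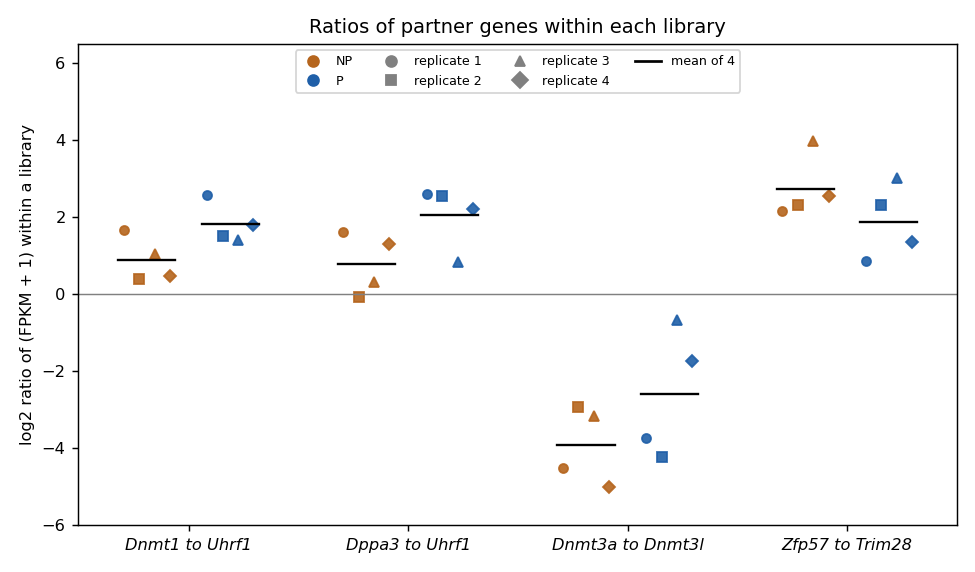
Log2 ratio of (FPKM + 1) of 2 partner genes within each library for 4 pairs, with NP and P libraries as points, the replicate number as the symbol and the mean of 4 libraries as a bar. Dnmt1 lies above Uhrf1, Dnmt3a below Dnmt3l and Zfp57 above Trim28 in all 8 libraries, and NP and P overlap in each pair.

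Around the members, 56 further genes of 6 pathway lists were examined, of which 53 passed the filter on low values. None was called by limma, beside 0.021% of all genes tested, and 2 had an unadjusted p below 0.05, beside 9.95%. In 0 of them the P libraries were all above the NP libraries, and in 2, Ahcy and Kmt2b, the NP libraries were all above the P libraries, beside 5.92% of all genes tested. The median log2 difference of the 53 genes was −0.39, as for all genes tested.

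Ahcy, the enzyme that breaks down S-adenosylhomocysteine, the product of methyl transfer, was at 48.6, 18.4, 18.1 and 24.2 FPKM in NP and at 5.01, 4.23, 3.21 and 0.666 FPKM in P. The lowest NP library was more than 3-fold above the highest P library, but the log2 difference of −2.76 (SE 0.77) was not called (unadjusted p = 0.00314, adjusted p = 0.376). Of the 10 tested genes of methyl donor supply, 3 had positive differences, beside 28.6% of all genes tested. Mat2a and Mat2b, the catalytic and regulatory subunits of an S-adenosylmethionine synthetase, had the highest means over all 8 libraries, although Shmt2, with 106 FPKM, was above Mat2a, with 79.7 FPKM, in the mean of NP. Mat2b was at 171 to 309 FPKM in NP and 191 to 657 FPKM in P, and Mat2a at 43.5 to 143 FPKM and 18.4 to 203 FPKM. The other gene with an unadjusted p below 0.05 was Mat1a, a synthetase better known from liver, which was named after its values were seen. It had 31.9 to 72.4 FPKM in NP and 8.03 to 34.0 FPKM in P (log2 difference −1.72, SE 0.67, adjusted p = 0.440).

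Kmt2b, a histone H3 lysine 4 methyltransferase listed under the older symbol Wbp7, was at 58.5, 18.4, 13.2 and 19.03 FPKM in NP and at 6.74, 11.3, 8.49 and 4.90 FPKM in P. Its NP and P libraries did not overlap, and the log2 difference was −1.48 (SE 0.72, adjusted p = 0.517). Among the 10 chromatin modifiers that shape the oocyte methylome, the highest means over all 8 libraries belonged to Kdm1b, an H3K4 demethylase needed for maternal imprints, and Nsd1, which deposits H3K36 methylation, although in NP alone the mean of Nsd1, 15.7 FPKM, was below those of Kmt2b and Setd2, 27.3 and 20.6 FPKM. Kdm1b was at 70.1 to 152 FPKM in NP and 78.5 to 207 FPKM in P. Nsd1 was at 7.45 to 24.6 FPKM in NP and 23.5 to 36.5 FPKM in P (log2 difference 1.05, SE 0.64, adjusted p = 0.576).

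Of 10 genes of imprint protection, 4 had positive differences, beside 28.6% of all genes tested, and their median difference was −0.25. Nlrp2, a maternal-effect gene linked to imprinting, was at 48.0, 58.2, 70.2 and 92.4 FPKM in NP and at 317, 136, 101 and 91.9 FPKM in P, so that only P replicate 4 was below the highest NP library. Its log2 difference was 1.11 (SE 0.58, adjusted p = 0.533). Setdb1, the H3K9 methyltransferase that TRIM28 recruits, was at 32.0 to 143 FPKM in NP and 62.8 to 94.6 FPKM in P.

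Over all genes tested, 28.6% had a positive difference. In the list of TET and base excision repair genes, 1 of 11 tested genes had a positive difference and the median was −0.55. The scaffold protein gene Xrcc1 had the highest mean, at 156 to 874 FPKM in NP and 56.5 to 1102 FPKM in P, followed by Apex1, the AP endonuclease, at 27.0 to 181 FPKM and 47.3 to 117 FPKM. Among the DNMT1 partners, where 3 of 6 genes had positive differences, Kat5, an acetyltransferase, had 4.46 to 127 FPKM in NP and 0.186 to 64.8 FPKM in P, and Pcna, the replication clamp, had 19.3 to 73.5 FPKM and 5.34 to 76.4 FPKM. The methyl-CpG readers were lower, with 1 of 6 positive differences. Zbtb33 was at 10.4 to 20.5 FPKM in NP and 3.70 to 17.3 FPKM in P, and Mbd1 at 3.15 to 48.2 FPKM and 0.837 to 6.73 FPKM.

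The direction of the negative differences depended on the scaling between the libraries. After scaling each library to one median FPKM, the fitted differences of Zfp57, Dnmt3l and Uhrf1 turned positive, at 0.57, 0.79 and 1.08, and the median of all genes tested moved from −0.39 to 0.21. The split of all genes at an unadjusted p below 0.05 became 1006 with more in P and 386 with more in NP, and the P libraries then lay entirely above the NP libraries in 720 genes and entirely below them in 299. Tet3 and Dnmt1 were among the former, with adjusted p values of 0.419 and 0.428 by limma. Relative to this median, the Tet3 difference was 1.51 as reported and 2.24 after that scaling, and that of Zfp57 was −0.38 and 0.36. After quantile normalisation, by which the median of all genes became −0.02, Tet3 was at 1.33 and Zfp57 at −0.69. The direction of Tet3, Dppa3, Dnmt1, Dnmt3a and Dnmt3b was positive in all 15 alternative fits, although none passed the adjusted threshold in any of them. These fits are not independent checks, since all of them reuse the same libraries. Changing the filter or adding a replicate block leaves the estimate of a gene as it was, so those fits could not change a direction.

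**Figure D5:**
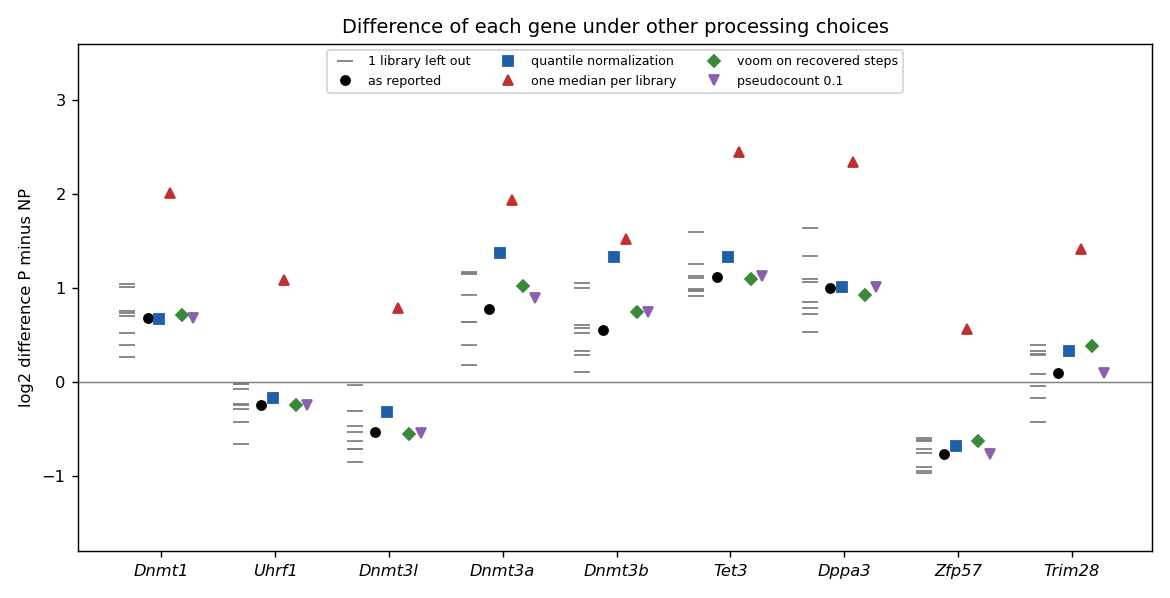
Log2 difference P minus NP of the 9 members as reported, after quantile normalisation, after scaling to one median FPKM per library, with voom on recovered steps, with a pseudocount of 0.1, and with 1 library left out at a time (8 dashes per gene). Scaling to one median gives the highest value for every gene, and Tet3 stays above 0.9 throughout.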

How the data were processed

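The authors depleted ribosomal RNA, reverse transcribed with random and oligo(dT) primers, amplified the cDNA and prepared libraries with the Nextera kit, which does not mark strand. Per the labels and the methods, reads were trimmed with Trim Galore 0.4.1, checked with FastQC 0.11.5, mapped to GRCm38 with HISAT2 2.0.5 and quantified in Seqmonk. The deposited table holds FPKM values per gene and library as the authors made them, and the values were used as deposited; the authors' tables of means, ratios and DESeq2 results were not used. All columns of single libraries were used.

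The filter kept genes whose mean exceeded 0.1 FPKM in NP or in P, and these were compared with limma 3.58.1 in R 4.3.3 (lmFit, eBayes with a trend) on log2(FPKM + 1), 2-sided, with Benjamini-Hochberg adjustment over 14292 genes and a threshold of 0.1. A log2 difference on this scale understates the change of low genes. Whole steps behind the FPKM values were recovered for 90.4% of the 15585 genes above 0, within 0.01 of a step, from annotated or searched lengths between 100 and 30000 bp, and voom on them was an alternative that called 129 genes. Ratios were tested exactly with Python 3.11.15, numpy 2.4.6, pandas 2.3.3 and scipy 1.17.1, figures were drawn with matplotlib 3.10.9, and copies of at least 200 bases and 85% identity were found with blastn 2.17.0 among GENCODE M21 transcripts. The fit and the step recovery were tested on simulated data.

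Replicates are 4 profiles, which the methods call independent, and the groups come from the titles. The authors pooled fractions of the same profiles into NP and P, so the design is paired by gradient. No source states that a replicate number marks 1 gradient in both datasets, so no block was used in the main comparison, and a fit with a block was an alternative. All members are named with their values; of the other lists a gene is named where called, where the libraries do not overlap, or as 1 of the 2 most abundant of its list. Members and lists were chosen with earlier results of these data known. Counts of recovered steps cover counting error only, since amplified cDNA without molecular identifiers does not give independent molecules.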

Additional observations from a re-analysis of the deposited data

Results flagged for a closer look

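P replicate 1 stood apart from the other P libraries in the log2 ratio of Tet3 to Tdg, which equals log2 of the Tet3 FPKM + 1 because Tdg was listed at 0. It was at 5.97, whereas P replicates 2, 3 and 4 were at 8.02, 7.78 and 7.86, and the gap made up more of the range than Dixon's 95% critical value for 4 samples allows. Chance flags about 1 in 20 groups, and this was 1 of 28 groups examined. On the linear FPKM scale Tet3 itself was not past this value.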

How the results depend on the processing

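No member was called in any of the 15 alternative fits, while over all genes the 3 calls became 5 with a pseudocount of 0.1 or a filter at 1 FPKM, 1 without a filter, 0 after either rescaling, 129 with voom and 0 to 5 when single libraries were left out. The count of members with P libraries all above NP libraries was 0 as reported, 2 (Tet3 and Dnmt1) after scaling to one median FPKM per library, beside 5.04% of all genes tested, and 0 to 1 when single libraries were left out, with Tet3 the 1 without P replicate 1, beside 0.742%. The count with NP libraries all above P libraries was 0 to 1, with Zfp57 the 1 without NP replicate 4, where 10.4% of all genes tested were so. Scaling to one median reversed Dnmt3l (0.79), Uhrf1 (1.08) and Zfp57 (0.57). The log2 difference of Trim28 reversed without NP replicate 3 (−0.17), NP replicate 4 (−0.04) and P replicate 1 (−0.43), and was between −0.43 and 0.39 over all single libraries left out. The cause was not tested. When single libraries were left out, the difference in the log2 ratio of Dnmt1 to Uhrf1 ranged from 0.68 to 1.18 and that of Tet3 to Tdg from 0.91 to 1.60. Both reached an unadjusted exact permutation p of 0.0286 only in the 1 case named in the report, where the only overlapping library of 1 dataset was left out. That of Dppa3 to Uhrf1 ranged from 0.97 to 1.66, of Dnmt3a to Dnmt3l from 0.67 to 1.86 and of Zfp57 to Trim28 from −1.24 to −0.45. All other alternatives left members and ratios on the same side of their threshold.

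Same-numbered NP and P libraries deviated from the mean of their dataset with correlations of 0.139, 0.0518, 0.251 and 0.155 over 11374 genes, and with other numbers at −0.135 to 0.136. Not every pair exceeded 0.1 and no source ties a number to 1 gradient, so the numbers were not taken as pairs. Each P library correlated best with the NP library of its own number, whereas NP replicate 2 correlated better with P replicate 1 (0.136) than with its own number. By limma with a replicate block, the unadjusted p was 0.0637 for Tet3 (0.0821 without it) and 0.0655 for Dppa3 (0.182 without it). For Dnmt3b it rose from 0.553 to 0.570. The adjusted p values with the block were 0.439 for Tet3 and 0.440 for Dppa3. With a replicate block, 0 members and 1 gene of all were called, against 3 without it, and the paired differences in the log2 ratio of Dnmt1 to Uhrf1, 0.93, and of Dppa3 to Uhrf1, 1.25, each had an exact sign-flip permutation p of 0.125, the smallest that 4 pairs allow.

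The width of the 95% confidence intervals limits the comparison, from −1.90 to 0.36 for Zfp57 and from −1.21 to 2.77 for Dnmt3a, and Dnmt3b rests on as few as 16 steps.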
